A study of Rattus norvegicus with 16 samples.

Results

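The globin genes encode the protein chains of hemoglobin, and 9 entries with globin symbols were followed in whole blood RNA from which globin mRNA had been removed. They were taken by exact symbol from the count files of 16 saline-treated rats, and all 9 were listed in all 16 libraries, among 18031 entries common to every library. Hba-a2 (ENSRNOG00000029886) and Hba2 (ENSRNOG00000047321) are alpha-globin entries, and Hbb (ENSRNOG00000049424) and Hbb-b1 (ENSRNOG00000047098) are beta-globin entries. The others were Hbq1b (ENSRNOG00000028114, theta-globin, an alpha-type gene), Hbz (ENSRNOG00000020536, zeta-globin, the embryonic alpha-type chain), Hbe1 (ENSRNOG00000029286) and Hbe2 (ENSRNOG00000030784), which are epsilon-type embryonic beta-like genes, and Hbg1 (ENSRNOG00000030879), a gamma-type beta-like gene.

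The animals were male Sprague-Dawley rats aged 85 to 90 days. Each received 4 injections of 1 ml/kg saline spaced 2 h apart and was killed 3 h after the last, and blood was drawn from the heart. All 16 libraries carry this 1 description, so the series as analysed here holds no second treatment, and the question put to it was how much the globin entries vary among control animals and which of them vary together. Alpha- and beta-globin mRNA had been removed with capture oligonucleotides (GlobinClear) before polyadenylated RNA was sequenced, so every level given here is what remained after depletion. Which entries the oligonucleotides bind is not given in the sources used here.

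Hemoglobin of the adult is built from alpha and beta chains, each carrying a heme group, while zeta- and epsilon-type chains are made mainly in the embryo. The alpha-type genes lie together in one cluster and the beta-type genes in another, on a different chromosome. Mature mammalian red cells have no nucleus, so globin mRNA in blood comes largely from reticulocytes, the youngest circulating red cells, which also still hold mRNA for heme synthesis and membrane proteins.

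Promoters matched 6 of the 9 entries by symbol in RefSeq (build GRCr8): Hba-a2, Hbb, Hbb-b1, Hbq1b, Hbe1 and Hbz. Hba2, Hbg1 and Hbe2 had no match. The 150 bases before the start of the 4 genes that the results below turn on are shown 5′ to 3′, because the r between their levels ranged from low to high across the libraries. Capitals mark matches to 4 motifs, each searched on both strands. They are the CCAAT box, the CACCC box, the TATA box written as TATAAA, and the GATA motif, taken as AGATAA or else as TGATAA. The ATTGG in capitals is the CCAAT box on the opposite strand, and in Hbb it adjoins one on the plus strand.
Hba-a2 (chr10:15829139-15829288, minus strand): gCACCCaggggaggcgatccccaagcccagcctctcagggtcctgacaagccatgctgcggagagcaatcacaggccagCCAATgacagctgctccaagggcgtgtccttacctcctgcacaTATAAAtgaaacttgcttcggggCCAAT
Hbb (chr1:167663722-167663871, minus strand): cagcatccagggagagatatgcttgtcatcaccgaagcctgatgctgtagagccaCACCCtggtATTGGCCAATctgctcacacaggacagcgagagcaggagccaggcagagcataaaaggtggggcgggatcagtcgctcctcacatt
Hbb-b1 (chr1:167643521-167643670, minus strand): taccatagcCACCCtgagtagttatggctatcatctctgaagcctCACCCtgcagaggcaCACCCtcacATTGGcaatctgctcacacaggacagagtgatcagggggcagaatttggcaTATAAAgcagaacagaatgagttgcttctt
Hbq1b (chr10:15839840-15839989, minus strand): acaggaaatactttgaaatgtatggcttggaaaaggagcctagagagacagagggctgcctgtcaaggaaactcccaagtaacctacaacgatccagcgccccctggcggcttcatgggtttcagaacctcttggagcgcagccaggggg
The CCAAT box was found before 5 of the 6 matched genes and in 23.5% of 33469 promoter windows of this length. The CACCC box was found before 4 of the 6, against 35.2% of all windows, the TATA box before 2 (8.0%) and the GATA motif before 2 (9.98%). The Hbq1b window held none of these letters, which says nothing of what binds there. The Hba-a2 window held the TATA box 28 to 23 bases before the start, and the Hbb-b1 window held it 30 to 25 bases before the start.

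Library totals ranged from 21466776 to 31189549 estimated counts. The file names carry 6 codes, called runs A to F here, and what the codes stand for is not stated. The paper describes its saline controls as coming from replicate experiments held at different times. Which library belongs to which experiment is not stated in the sources used here. Differences between animals or runs given below were therefore not separated from differences between experiments, whose part was not tested. Runs A, B, C and D held 3, 5, 2 and 4 libraries, and runs E and F 1 each. Control 2 (run A) stood apart by liver transcripts, with 330000 normalized counts of Alb (serum albumin) against a median of 17.5, and 13 of 14 liver markers were highest in it. The sum of the 14 markers was 576000 in control 2. Control 8 (run B) came next at 136000, where the median was 18400, and had the highest Hp (haptoglobin) at 62900. Control 10 (run B) had the highest sum of 8 cardiac muscle markers, 536 normalized counts against 92.2 in the next library and a median of 20.8. The sum of 5 T-cell markers was highest in control 12 (run D), at 10800, but control 3 was close to it at 10500, and the median was 7130. Values without controls 2, 10 or 12 are given where they changed a result.

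The alpha-globin entries differed several-fold between control animals. Hba-a2 ranged from 327000 normalized counts (DESeq2 size factors) in control 1 to 2220000 in control 2, with a median of 1770000 and a mean of 1440000 ± 675000 (SD, n = 16). The libraries did not spread evenly. Controls 1, 4, 9 and 12 lay at 327000, 472000, 525000 and 489000, controls 3 and 15 at 1030000 and 1000000, and the other 10 between 1670000 and 2220000. The 4 lowest came from 4 different runs, A, B, C and D. Hba2 ranged from 108000 in control 1 to 1200000 in control 7, with a median of 848000 and a mean of 667000 ± 380000 (SD, n = 16), and the same 6 controls were its 6 lowest. In bulk blood, fewer reticulocytes and less globin mRNA per reticulocyte cannot be told apart, and unequal removal of globin mRNA from one library to the next was not tested.

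**Figure D1:**
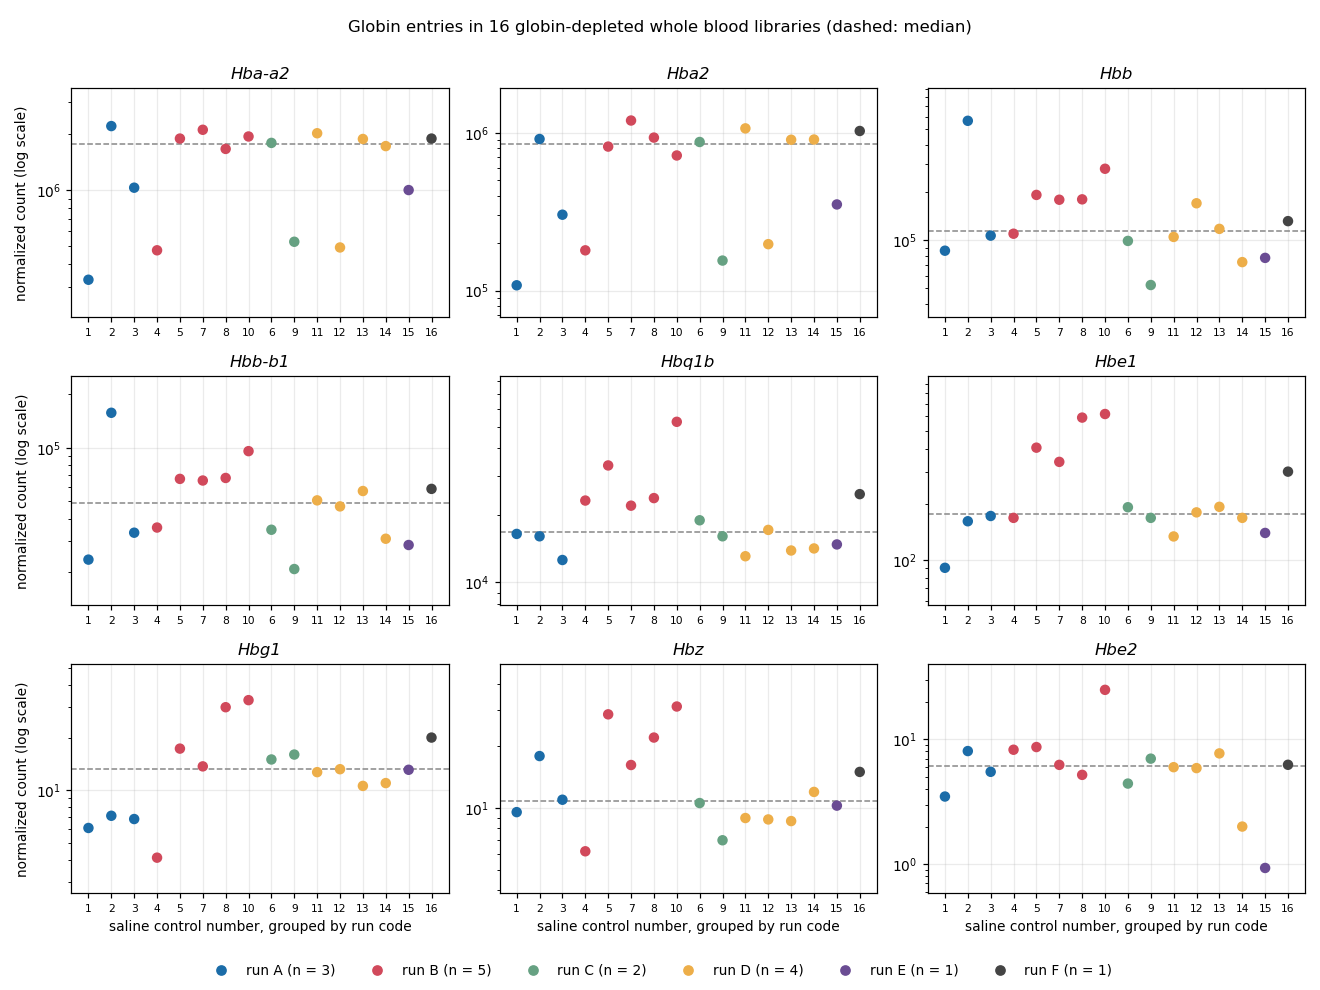
Normalized counts of the 9 globin entries (log axis, 1 panel each) in the 16 saline controls, grouped and coloured by run, with the median as a dashed line. The alpha-globin entries drop to 327000 to 525000 (Hba-a2) in controls 1, 4, 9 and 12, while Hbq1b and Hbe1 are highest in control 10.

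The beta-globin entries had another order of animals. Hbb ranged from 52300 normalized counts in control 9 to 565000 in control 2, with a median of 114000 and a mean of 158000 ± 123000 (SD, n = 16). The next library after control 2, which had the highest sum of liver markers, was control 10 at 282000. Without control 2 the mean was 131000 ± 60000. The controls with the lowest Hba-a2 were not all low in Hbb, since control 12 had 171000 and control 4 had 110000, whereas controls 1 and 9 had 86000 and 52300. Hbb-b1 ranged from 20900 in control 9 to 157000 in control 2, with a median of 48800. A further entry labelled HBB in capitals (ENSRNOG00000048955), outside the 9, ranged from 67700 in control 1 to 463000 in control 2 with a median of 127000, and its part in sums and ratios is given with them.

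Hbq1b was lowest at 12600 normalized counts in control 3 and highest at 52600 in control 10, with a median of 16900 and a mean of 20900 ± 10100 (SD, n = 16). All 5 libraries of run B lay at 22100 or above, and all libraries of runs A and D at 17200 or below. Hbe1 ranged from 90.6 in control 1 to 618 in control 10, with a median of 177. Control 8 of run B followed at 591. Hbg1, Hbz and Hbe2 were near the limit of detection, with 4 to 23, 6 to 23 and 1 to 16 estimated counts per library. At these counts, counting error alone gives a coefficient of variation of 27.1%, 27.4% and 39.0%, against observed values of 55.0%, 53.4% and 76.3%. The observed coefficients for Hba-a2, Hba2, Hbb, Hbb-b1 and Hbq1b were 46.9%, 56.9%, 77.7%, 62.0% and 48.5%, and the median over 318 genes averaging 10000 normalized counts or more was 41.4%. Transcript lengths of the build used were not at hand, so levels of different entries were not compared with each other.

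The 9 entries together took from 2.65% of a library's counts in control 1 (95% Wilson interval 2.6392% to 2.6519%) to 14.7% in control 11 (14.695% to 14.72%), with a median of 8.46%. These intervals cover counting error only and are far narrower than the differences between animals. With HBB added, the share ran from 2.96% to 15.5%. The alpha entries Hba-a2 and Hba2 took 2.05% to 13.9% of counts, and the beta entries Hbb and Hbb-b1 took 0.319% to 2.59%.

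The ratio of alpha to beta counts differed between animals by about as much as the counts themselves. Hba-a2 and Hba2 together over Hbb and Hbb-b1 together gave 3.15 in control 12, a median of 10.5 and 25.4 in control 14, a range of 8.07-fold, with a mean of 11.6 ± 6.50 (SD, n = 16). Both extremes came from run D, in which the other controls had 16.0 and 19.9. Run A gave 3.97, 4.35 and 9.51, and run B 4.46 to 13.5, so libraries of 1 run did not share a ratio. Controls 1, 2, 4 and 12 all had ratios under 5, but in control 2 both sums were high, with alpha at 11.2% and beta at 2.59% of counts, and in controls 1, 4 and 12 alpha was low, at 2.05%, 2.94% and 3.41%. With HBB counted as a beta entry the ratio ran from 1.88 in control 12 to 14.8 in control 14, with a median of 4.93. The ratio is one of counts, not per length, and is read only across libraries.

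**Figure D2:**
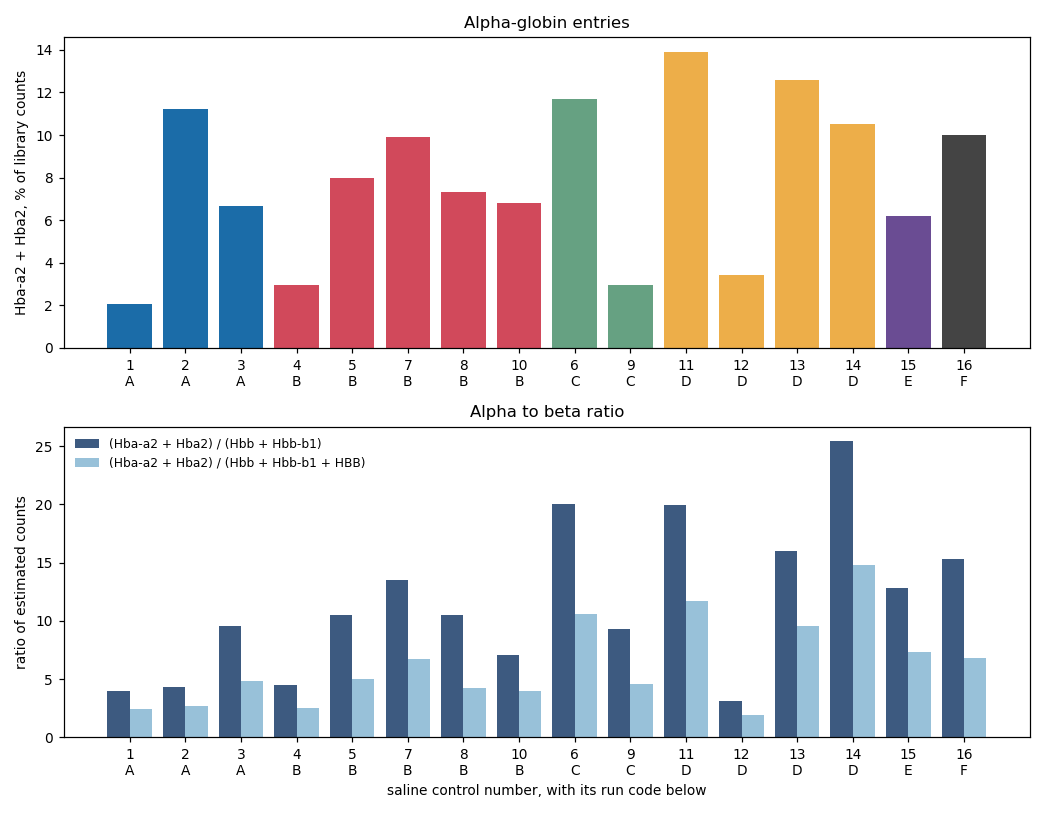
Upper panel, share of library counts taken by Hba-a2 and Hba2 (percent) in each saline control, with its run code below the number. Lower panel, ratio of alpha to beta estimated counts without HBB (dark bars) and with it (light bars), from 3.15 in control 12 to 25.4 in control 14 without it.

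Within each chain type the ratios were narrower. Hba-a2 over Hba2 ran from 1.77 in control 7 to 3.40 in control 3, with a median of 2.37, and was 3.38 in control 9 and 3.04 in control 1. Hba2 changed more than Hba-a2 did, with an SD of 1.18 against 0.94 on the log2 scale. Hbb over Hbb-b1 ran from 2.07 to 3.65, with a median of 2.80, and HBB over Hbb from 0.788 to 2.05. How the estimated counts were divided among these entries was not tested.

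Across the 16 libraries the levels, as log2(normalized count + 1), fell into sets that varied together. All 36 pairs of the 9 entries had a Pearson r above 0, from 0.15 to 0.98 with a median of 0.56. All levels were divided by the same size factors, so a positive r can be partly built in. With total counts in place of size factors, Hbq1b had r of -0.37 with Hba-a2, -0.35 with Hba2 and -0.041 with Hbb-b1. The other pairs computed that way with Hba-a2, Hbb or Hbq1b among the 6 better-counted entries stayed above 0. The alpha entries formed one set (Hba-a2 and Hba2, r = 0.98), the beta entries another (Hbb and Hbb-b1, r = 0.95, and with HBB 0.90 and 0.91), and Hbq1b and Hbe1 a further one (r = 0.80). Hbz had r = 0.80 with Hbe1 and 0.72 with Hbq1b, and Hbg1 had 0.77 with Hbe1, although these last 2 entries rest on few counts. Between sets r was lower, 0.46 for Hba-a2 with Hbb, 0.22 for Hba-a2 with Hbq1b and 0.46 for Hbb with Hbq1b. The differences between these coefficients were not tested. RSEM divides reads that fit several genes among their entries. The r between like entries of 1 chain type can depend on that division, here and in the tests below. Its part was not tested.

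**Figure D3:**
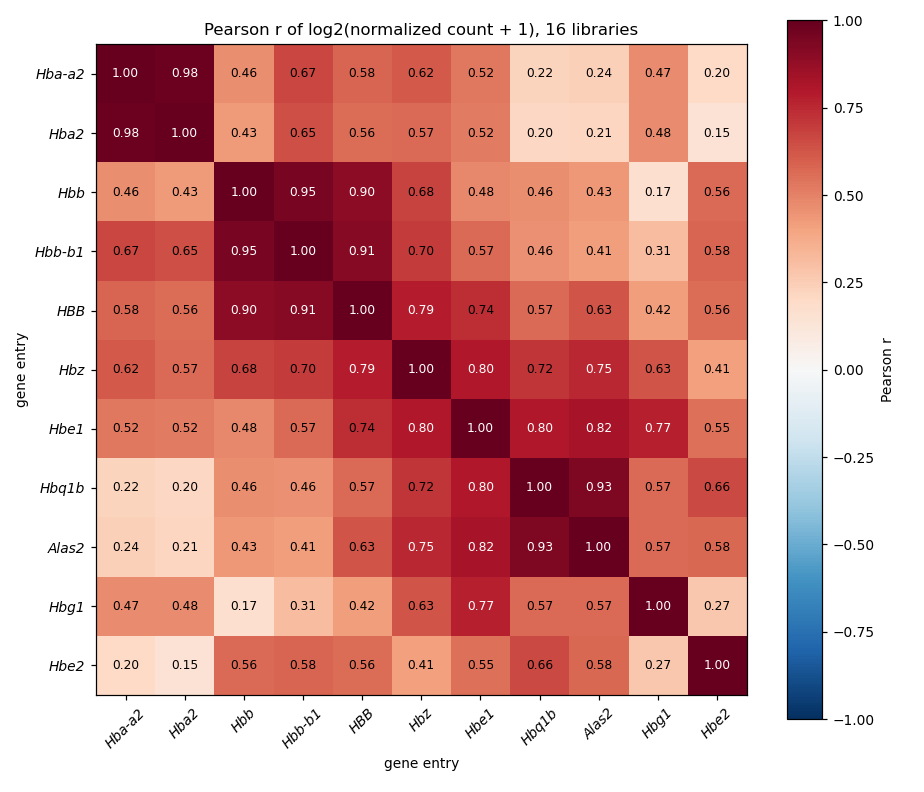
Pearson r of log2(normalized count + 1) between the 9 globin entries, HBB and Alas2 over 16 libraries, with the value in each square. Dark squares join Hba-a2 with Hba2 (0.98), the 3 beta-globin entries (0.90 to 0.95) and Hbq1b with Alas2 (0.93).

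To set these values against the rest of the transcriptome, r was computed between 4 reference genes and each of 11027 other genes that passed a filter on low counts, with a two-sided permutation test of 100000 permutations and Benjamini-Hochberg adjustment over all genes. The references were Hba-a2, Hbb, Hbq1b and, outside the globins, Alas2 (ENSRNOG00000000167), which encodes the erythroid enzyme of the first step of heme synthesis. Of the 9 entries, 6 passed the filter, and Hbg1, Hbz and Hbe2 did not. The smallest p these permutations can give is 1e-05, so at least 3 genes must reach it before any passes an adjusted p of 0.05.

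No gene passed against Hba-a2 in this test (0.0% of genes in either direction, with 390 genes at an unadjusted p under 0.05). Hba2 had the highest r of all 11027 genes (0.98, Spearman rho 0.81, p = 1e-05, adjusted p = 0.11), the smallest that a single gene can reach. When the level of Hba-a2 was instead used as a covariate in edgeR's quasi-likelihood regression, 3 genes passed, among them Hba2 with a slope of 1.23 (adjusted p = 6.3e-05), and 5 passed in DESeq2's regression. Hba-a2 had a gap between 1030000 and 1670000. Among the 6 libraries below the gap, r of Hba-a2 with Hba2 was 0.96 (rho 0.77), and among the 10 above it, which span the narrower range of 1670000 to 2220000, it was 0.29 (rho 0.25). Both are given without a test because the libraries were taken by their Hba-a2 level, and a narrower range by itself lowers r. The next members against Hba-a2 were Hbb-b1 (r = 0.67, p = 0.0049, adjusted p = 0.98, rank 10 among all genes) and Hbe1 (r = 0.52, adjusted p = 0.98). Alas2 had r = 0.24 (rho 0.19, p = 0.37, adjusted p = 0.98), and 15.8% of genes had a higher r. In the 4 libraries lowest in Hba-a2, Alas2 was 236000, 271000, 260000 and 186000 (controls 1, 4, 9 and 12), against a median of 248000 over all 16.

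Against Hbb, 5 genes passed, all with positive r (0.0453% of genes, with 0.0% negative). Hbb-b1 (r = 0.95, rho 0.95, adjusted p = 0.022) and HBB (r = 0.90, rho 0.95, adjusted p = 0.022) were among them. The others were Cyc1 (cytochrome c1 of the respiratory chain, r = 0.87), Mgst3 (a microsomal glutathione S-transferase, r = 0.87) and an entry without a symbol, ENSRNOG00000031230, each with an adjusted p of 0.022. The r of Hbb with Hbb-b1 was 0.92 without control 2 and 0.89 without controls 2 and 10, the 2 farthest in Hbb, where no gene passed any longer (adjusted p = 0.22). Hbq1b, Hbe1 and Alas2 had r of 0.46, 0.48 and 0.43 with Hbb (adjusted p = 0.34, 0.31 and 0.36). These values moved with single libraries and with the scaling. Without control 2 they were 0.75, 0.79 and 0.66 (adjusted p = 0.062, 0.041 and 0.13), and the number of genes that passed rose to 152. Without control 10 they were 0.32, 0.37 and 0.32, and by total counts 0.073, 0.11 and 0.027. The liver transcripts of control 2 moved with its high Hbb, and their part was not tested.

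Against Hbq1b, 852 genes passed with positive r (7.73%) and 15 with negative r (0.136%). Alas2 was among the former (r = 0.93, rho 0.89, adjusted p = 0.00059), and so was Hbe1 (r = 0.80, rho 0.68, adjusted p = 0.0051), 1 of the 5 other globin entries tested. Hba-a2, Hba2, Hbb and Hbb-b1 did not pass, with r of 0.22, 0.20, 0.46 and 0.46 (adjusted p = 0.86, 0.87, 0.47 and 0.48). Against Alas2 itself, 836 genes passed with positive r (7.58%) and 25 with negative r (0.227%), and Hbq1b (adjusted p = 0.00056) and Hbe1 (r = 0.82, adjusted p = 0.0038) were the globin entries among them. The range of r between Hbq1b and Alas2 was 0.92 to 0.94 when each library was left out in turn. Without controls 5 and 10, the 2 farthest in Hbq1b, it was 0.89 (adjusted p = 0.013), and the number of genes past the threshold fell to 227. Without control 10 alone, which held the highest cardiac muscle sum, it was 508, and Hbe1 with Hbq1b had r = 0.72 (adjusted p = 0.05, no longer under the threshold). The part of the cardiac transcripts was not tested. The call of Hbe1 against Hbq1b was also lost by Spearman's rho (adjusted p = 0.075), by total counts (r = 0.46, adjusted p = 0.27), by total counts without globins (adjusted p = 0.2) and without controls 5 and 10 (r = 0.66, adjusted p = 0.17). Against Alas2, Hbe1 no longer passed by total counts (r = 0.56, adjusted p = 0.16), by total counts without globins (r = 0.56, adjusted p = 0.083), without the 2 libraries farthest in Alas2 (r = 0.70, adjusted p = 0.11) or within runs (r = 0.66, adjusted p = 0.72).

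**Figure D4:**
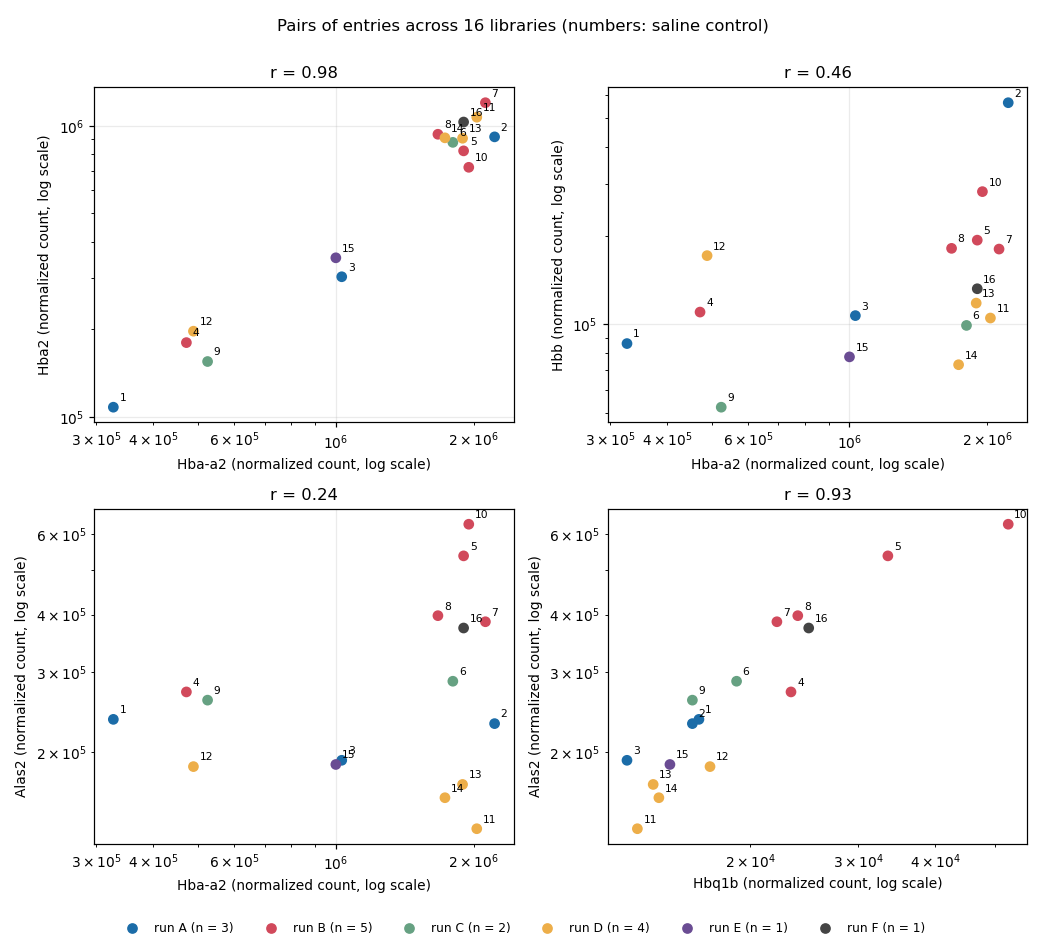
Normalized counts (log axes) of 4 pairs of entries in 16 saline controls, numbered and coloured by run, with Pearson r above each panel. Hba-a2 rises with Hba2 across a gap between 1030000 and 1670000 and has r = 0.24 with Alas2 (permutation test p = 0.37). Hbq1b rises with Alas2 from run D to run B (r = 0.93).

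Run and relation were entangled for Hbq1b and Alas2. After centring within the 4 runs with at least 2 libraries, 14 libraries gave r = 0.86 for Hbq1b with Alas2 (within-run permutation p = 0.0024), 0.41 for Hbq1b with Hbe1 (p = 0.39), 0.98 for Hba-a2 with Hba2 (p = 0.0011) and 0.96 for Hbb with Hbb-b1 (p = 0.00074). Within runs the relation of Hbq1b with Hbe1 was thus weaker and without a call, which in 14 libraries does not show its absence. No gene passed an adjusted p of 0.05 within runs, with 353 genes at an unadjusted p under 0.05 against Hba-a2, 1160 against Hbb, 862 against Hbq1b and 891 against Alas2. The smallest adjusted p was 1.0, 0.18, 0.22 and 0.17 in the same order.

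Scaling mattered as well. The library total over the DESeq2 size factor had r = 0.80 with Hbq1b (adjusted p = 0.00076 over 8 such relations), 0.84 with Alas2 (adjusted p = 0.00076), 0.59 with Hba-a2 (adjusted p = 0.032) and 0.58 with Hbb (adjusted p = 0.032) by permutation test. Without the 2 libraries farthest in that measure these were 0.70, 0.75, 0.60 and 0.48. The levels are divided by the same size factor, so a positive r is partly built in, and these p-values are no separate evidence. With the log2 library total alone, r was -0.13 for Hbq1b, -0.071 for Alas2, 0.43 for Hba-a2 and 0.56 for Hbb. By the same permutation test the adjusted p was 0.72, 0.79, 0.13 and 0.035. Without the 2 farthest libraries these r were -0.022, -0.037, 0.22 and 0.39. With total counts in place of size factors, Hbq1b with Alas2 kept r = 0.81, Hba-a2 with Alas2 turned to -0.32 and Hba-a2 with Hbq1b to -0.37. With the globin entries left out of the total, Hbq1b had 233 genes with positive and 944 with negative r past the threshold, in place of 852 and 15.

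Genes of red cell function, taken as 4 fixed lists, were often called against Hbq1b. Of their 44 genes tested, 32 passed with positive r against it, where 7.73% of all genes did. Against Hba-a2 or Hbb 0 passed, but only 0.0% and 0.0453% of all genes did, so this is not particular to red cell genes. The difference between the references was not itself tested. With negative r, 0 passed against any of these 3 references. These lists were drawn up with earlier results of these data known. Of 10 genes of heme synthesis and mitochondrial iron, 7 passed against Hbq1b, with a median r of 0.79 against -0.07 over all genes tested. Among them were Fech (ferrochelatase, which puts iron into heme, r = 0.86, adjusted p = 0.00089) and Urod (r = 0.88, adjusted p = 0.0011). The same 10 had a median r of 0.23 with Hba-a2 and 0.44 with Hbb, against -0.02 over all genes in both cases.

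Of 13 red cell membrane and skeleton genes, 9 passed against Hbq1b (median r 0.69), where 7.73% of all genes passed with positive r. Slc4a1 (the anion exchanger band 3, r = 0.79, adjusted p = 0.0037) and Rhd (r = 0.83, adjusted p = 0.0029) were among them. Kel, a blood group antigen, had r = 0.47 (adjusted p = 0.44). Of 10 genes of red cell cytoplasm and reticulocyte maturation, 9 passed (median r 0.82). They included Bpgm (bisphosphoglycerate mutase, which lowers oxygen affinity, r = 0.92), Prdx2 (a peroxidase of red cells, r = 0.92) and Bnip3l (needed for clearing mitochondria, r = 0.89), each with an adjusted p of 0.00089 or less. Of 11 genes for the globin chaperone and erythroid transcription factors, 7 passed (median r 0.74). Ahsp, the chaperone of free alpha chains, had r = 0.75 with Hbq1b (adjusted p = 0.014), 0.44 with Hba-a2 (adjusted p = 0.98) and 0.58 with Hbb (adjusted p = 0.21). Nfe2 had r = 0.73 (adjusted p = 0.023) and Hemgn 0.78 (adjusted p = 0.0092) with Hbq1b, and Tal1, also listed there, had -0.41 (adjusted p = 0.57).

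**Figure D5:**
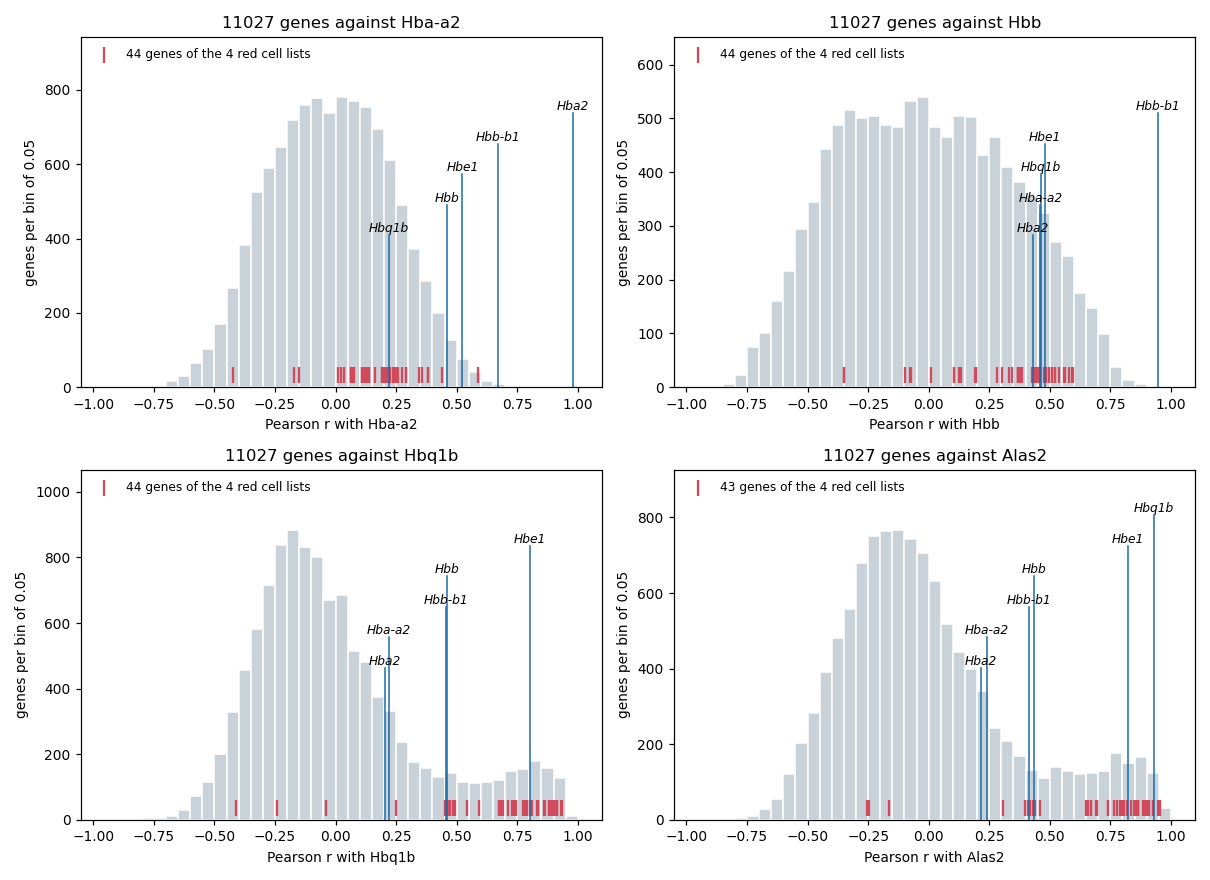
Distribution of Pearson r over 11027 genes with each of the 4 reference genes, with globin entries as blue lines and genes of the 4 red cell lists as red ticks. Most red cell genes lie in the right-hand tail against Hbq1b and Alas2 (32 of 44 and 28 of 43 past the threshold). Of all genes, 7.73% and 7.58% passed there with positive r. None of the red cell genes passed against Hba-a2 (0 of 44), and neither did any other gene.

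Genes outside the 9 entries were ranked by r if they had a symbol and a mean of at least 100 normalized counts. Those most like Hbq1b over the 16 libraries were Slc25a39 (a mitochondrial carrier for glutathione, r = 0.97), Dhrs11 (0.96), Inpp5k (0.96), Atp5b (a subunit of ATP synthase, 0.96) and Zfand2b (0.96), each with an adjusted p of 0.00059. The most opposite were Smg8 (r = -0.77, adjusted p = 0.0058), Eif4enif1 (r = -0.77, adjusted p = 0.0083) and Pus7l (r = -0.76, adjusted p = 0.0053). Beside HBB, Cyc1 and Mgst3, the genes most like Hbb were Acadl (a mitochondrial acyl-CoA dehydrogenase, r = 0.90, adjusted p = 0.055) and Tst (r = 0.85, adjusted p = 0.07). Hdac4, Msl2 and Pip4k2b had the lowest r with Hbb (-0.83, -0.82 and -0.82, adjusted p = 0.069, 0.082 and 0.075). Among the ranked genes, most like Hba-a2 were Clpb (r = 0.78), Sat2 (0.77), Tmem160 (0.71), Uqcrq (a subunit of respiratory complex III, 0.67) and Mrps18c (0.66). Least like it were Tmem170a (-0.76), Ss18 (-0.74) and the immediate early gene Egr1 (-0.74). The adjusted p of these genes ran from 0.63 to 0.98. Outside the ranking, Hba2 and an entry without a symbol, ENSRNOG00000045989 (r = 0.87), had a higher r with Hba-a2 than any of them.

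Markers of other blood cells gave no call against any globin reference. Of 5 T-cell, 5 B-cell, 6 monocyte, 2 neutrophil, 6 general leukocyte and 11 platelet genes tested, 0 passed against Hba-a2, Hbb or Hbq1b. Of all genes, 0.0% passed against Hba-a2 and 0.0453% against Hbb. Against Hbq1b, 7.73% passed with positive and 0.136% with negative r. The absence of calls is therefore at or near the share over all genes and is not particular to these markers. The 11 platelet genes had a median r of -0.33 with Hbq1b and 0.24 with Hba-a2, and the 6 monocyte genes -0.40 with Hbb. Of the globins outside the hemoglobin clusters, Mb (myoglobin) had a median of 6.59 normalized counts and reached 204 in control 10, Cygb (cytoglobin) a median of 23.9 and Ngb (neuroglobin) 1.00.

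The runs were compared with edgeR's quasi-likelihood test within a single fit to the 12 libraries that make up runs A, B and D. In none of the 3 comparisons did a globin entry pass an adjusted p of 0.05, out of 8 tested. The share of all 12952 genes that passed was 2.3% (298 genes) in B against D and 0.0% when run A was compared with B or with D. At an unadjusted p under 0.05 there were 11.3% of genes in B against D, 13.5% in A against B and 5.41% in A against D. Hbq1b had the smallest p among the globins in B against D, with 31100 ± 12900 normalized counts in run B (SD, n = 5) and 14600 ± 1780 in run D (SD, n = 4). The fitted log2 change from B to D was -1.08 (SE 0.27, adjusted p = 0.062), and for Hbe1 it was -1.31 (SE 0.34, adjusted p = 0.073). From A to B the changes were 1.03 (SE 0.30, adjusted p = 0.15) for Hbq1b and 1.56 (SE 0.38, adjusted p = 0.12) for Hbe1. DESeq2 called 742 genes in B against D, 566 in A against B and 14 in A against D, and it called both of these globins in the first 2 of them (adjusted p from 0.0019 to 0.014 over the 4 values). Hba-a2 and Hbb spread widely within each run. Their changes from B to D were -0.06 (SE 0.58, adjusted p = 1.0) and -0.68 (SE 0.52, adjusted p = 0.83), with intervals too wide to show that the runs were alike.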

How the data were processed

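RNA was isolated from frozen whole blood of 16 saline-treated rats, depleted of alpha- and beta-globin mRNA, selected for polyadenylated RNA and sequenced as stranded paired ends. The authors made FASTQ files with CASAVA 1.8.2, aligned them with Bowtie 0.12.9 to rat transcripts of Ensembl release 70 (build rn5) and deposited expected counts per gene from RSEM 1.2.0. RSEM divides reads that fit several genes, and how it divided them among the globin entries was not tested. The deposited expected counts were rounded to whole numbers here.

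The 9 entries and the gene lists were chosen with earlier results of these data known. Counts were scaled by DESeq2 (1.42.0) size factors over 18031 genes listed in every file and taken as log2(normalized count + 1). Relations were tested on genes passing edgeR's filterByExpr, with 100000 permutations of the libraries (two-sided, numpy 2.4.6) and Benjamini-Hochberg adjustment over all genes. Run codes were read from file names, and runs A, B and D were compared with edgeR (4.0.16, TMM, quasi-likelihood). Nothing says that runs are extraction or sequencing batches. Each library has its own control number and was taken as 1 animal, so p-values measure the spread between these samples. Totals were 21466776 to 31189549 counts. Tests were checked on simulated data. Named genes were the 9 entries, Alas2, the 5 genes with highest and 3 with lowest r per globin reference (mean of at least 100 normalized counts), and up to 3 genes of highest mean per list. Other genes of a list, and entries without a symbol, were named after their values were seen. Alternatives were other scalings, Spearman's rho, a pseudocount of 4, no filter, centring within runs, regression in edgeR or DESeq2, and leaving out libraries. Promoter letters came from RefSeq (GRCr8) and share no coordinates with the rn5 counts.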

Additional observations from a re-analysis of the deposited data

Results flagged for a closer look

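Within runs B (n = 5) and D (n = 4), the level of each globin entry, the globin share and the alpha to beta ratio were searched for outlying libraries. A library was taken if its gap to its nearest neighbour exceeded Dixon's 95% limit for the range. For the entries the limit was applied to log2 levels, not to the normalized counts printed below, on which the outcome can differ. Of 22 such searches 5 gave one, where chance gives about 1 in 20 for a single search. The searches are not independent, because Hba-a2 and Hba2 varied together (r = 0.98) and the share and ratio use the same counts. The number found therefore does not show an excess over chance. In run B, control 4 had 472000 normalized counts of Hba-a2 against 1670000 in the next library, and 180000 of Hba2 against 720000. In run D, control 12 had 489000 of Hba-a2 against 1730000, and 197000 of Hba2 against 906000. In Hbb, control 4 was the lowest of run B at 110000, with the others at 180000 to 282000, and control 12 the highest of run D at 171000, with the others at 72900 to 118000. Control 14 had 12.0 normalized counts of Hbz against 8.97 in the next library of run D, a difference of few reads.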

How the results depend on the processing

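No paired analysis was possible because the series has 1 group of samples. Of 636 alternative values for the 26 relations and run changes with a test, 23 lost the call, 14 gained it and 12 turned direction. Of 152 alternative counts, 119 were within 1.5 times the reported one. A count of 0 against 0 was taken as within it, which covers most counts for Hba-a2 and for globin entries between runs. The rule also ignored sign. It took in the 1177 genes against Hbq1b by total counts without globins, of which 233 had positive and 944 negative r. Genes related to Hba-a2 numbered 0 except by regression, 3 with edgeR and 5 with DESeq2. For Hbb the 5 genes became 147 and 622 by the same regressions, 8 without the filter, and 0 under both total-count scalings, within runs or without the 2 farthest libraries, and 0 to 152 leaving 1 library out (0 without control 14 or 15, 152 without control 2, 43 without control 9, 20 without control 3). For Hbq1b the 867 became 134 by total counts, 0 within runs, 227 without the 2 farthest and 508 to 887 leaving 1 out, and for Alas2 the 861 became 203, 0, 278 and 556 to 896, with 1627 (248 positive, 1379 negative) when globins were left out of the total. The cause was not tested. By total counts, and by total counts without globins, r turned negative for Hba-a2 with Hbq1b (-0.37 and -0.22), Hba-a2 with Alas2 (-0.32 and -0.19), Hba2 with Hbq1b (-0.35 and -0.20), Hba2 with Alas2 (-0.30 and -0.18) and Hbb-b1 with Alas2 (-0.11 and -0.049), and by total counts for Hbb-b1 with Hbq1b (-0.041). Hba2 with Hbq1b was -0.006 within runs. Among the 10 libraries above the gap in Hba-a2, an alternative chosen after seeing the data, r of Hba-a2 was -0.049 with Hbq1b, -0.27 with Hbe1 and -0.036 with Alas2, and among the 6 below it -0.064 with Hbb, -0.63 with Hbq1b and -0.60 with Alas2. Between runs, DESeq2 called 2 globin entries in A against B and 2 in B against D, and leaving 1 library out gave 0 to 2 and 0 to 3, the highest without control 4. In both comparisons, DESeq2 and the edgeR fit without control 4 also called more of all genes tested than the main edgeR fit did. The globin calls therefore came with a general rise in calls. Whether globin entries gained more calls than other genes was not tested. The mean share was 8.36% to 9.16% and the mean alpha to beta ratio 10.7 to 12.2 leaving 1 library out. Depth limits Hbg1, Hbz and Hbe2, at 1 to 23 counts.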

Other observations

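Entries without a symbol that followed a globin most closely were looked up after the values had been seen. ENSRNOG00000045989 had r = 0.87 with Hba-a2 (rho 0.63, n = 16) and 0.13 with Alas2, at 4230 to 66000 normalized counts. ENSRNOG00000031230 had r = 0.97 with HBB (rho 0.92, n = 16) and 0.57 with Alas2, at 18200 to 122000 normalized counts. The count files give no name for either.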
